A study of Mus musculus with 2 samples.

Results

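Il33, Il1rl1 and Il1rap encode the cytokine IL-33, its receptor ST2 and the shared co-receptor IL-1RAcP. They were read as 3 of the 26981 genes counted by single-cell RNA sequencing of CD45+ cells from mouse visceral adipose tissue (VAT). All mice were C57BL/6 wildtype animals of 15 weeks, and CD45+ cells of the epididymal depot were enriched on magnetic beads. The conditions were normal water (NW) and water with antibiotics (ABX), which the study's methods give as a mixture of ampicillin, streptomycin, colistin and vancomycin. Each condition was 1 library, and the number of mice behind a library is not given in the sources used here. There is thus no spread between replicates and no test: every interval below is a 95% interval that covers counting error only, and a difference is between these 2 libraries. All 3 genes were present in both libraries, among 24765 genes in NW and 25447 in ABX. They were chosen by name as the ligand and the receptor chains of this pathway, with earlier results of these data known.

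IL-33 is stored in the nucleus of stromal, endothelial and mesothelial cells and is released when these cells are damaged or stretched. It binds ST2, which then pairs with IL-1RAcP and signals through MyD88, IRAK kinases and TRAF6 to NF-kB and p38. In VAT, ST2 is best known from group 2 innate lymphoid cells (ILC2) and from the tissue's Treg cells, whose maintenance depends on IL-33. ST2 also exists as a soluble decoy that is made from shorter transcripts of the same gene.

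Cells with at least 500 gene UMIs (unique molecular identifiers, each marking 1 captured mRNA molecule), at least 200 genes and at most 25% mitochondrial UMIs were kept, 12474 in NW and 12724 in ABX. The median cell held 5092 UMIs in NW and 3845.5 in ABX, and the libraries summed to 75214427 and 60770758 UMIs. The libraries shared 371 cell barcodes, where 355 would coincide among 884736 possible labels, and 196 of them were kept in both. Levels are given as UMIs per 1000000 gene UMIs of the same cells (CPM). Cells were clustered without the 3 genes, and a cluster was called "X-like" only from listed markers. Listed markers were found in most cells of their class: Foxp3 in 82.9% of Treg-like, Gata3 in 88.0% of ILC2-like and S100a8 in 95.8% of neutrophil-like cells. Since such markers gave the names, these shares describe the classes and do not check the names. Cd3e, which was not on the ILC2 list, was found in 4.79% of ILC2-like cells. Ptprc, which encodes CD45, was found in 90.0% of ILC2-like and 95.4% of Treg-like cells, but in 20.9% of fibroblast-like and 51.1% of endothelial-like cells, classes that a CD45+ selection should hold few of.

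In the mouse annotation (GENCODE vM21, GRCm38) Il1rl1 lies on the plus strand at chr1:40429570-40465415, Il1rap at chr16:26581704-26730117 and Il33 at chr19:29925114-29960718, and all 3 are protein-coding. The 8-exon transcript Il1rl1-205 ends at position 40446723, whereas the 11-exon transcript Il1rl1-202 runs to 40465415. Gene-level counts sum such transcripts, so membrane and soluble ST2 cannot be told apart here. The promoters of Il1rl1 are shown because, as given below, Il1rl1 was found mainly in cells with high Gata3, whose product binds GATA motifs. The windows come from RefSeq on GRCm38.p6 and run from 250 bases before to 50 bases after a start site, chr1:40429320-40429619 for the distal and chr1:40439379-40439678 for the proximal start. Capitals mark matches, on either strand, to the letters GATA with A or T before them and A or G after them.
Il1rl1 distal: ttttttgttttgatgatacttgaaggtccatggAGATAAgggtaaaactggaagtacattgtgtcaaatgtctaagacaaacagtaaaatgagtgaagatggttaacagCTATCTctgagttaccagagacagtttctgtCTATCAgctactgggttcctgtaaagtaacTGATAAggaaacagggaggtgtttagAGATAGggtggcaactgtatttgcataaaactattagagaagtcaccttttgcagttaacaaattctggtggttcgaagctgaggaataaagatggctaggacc
Il1rl1 proximal: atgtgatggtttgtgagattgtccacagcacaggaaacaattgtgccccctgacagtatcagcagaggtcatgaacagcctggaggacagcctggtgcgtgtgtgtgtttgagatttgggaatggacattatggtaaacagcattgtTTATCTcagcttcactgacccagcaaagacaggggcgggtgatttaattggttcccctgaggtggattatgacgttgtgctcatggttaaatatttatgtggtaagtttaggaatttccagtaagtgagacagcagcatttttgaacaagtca
The distal window held 5 matches and the proximal window 1. Of 32851 promoter windows of this length, 29.8% held at least 1 match and 0.0548% held at least 5. These windows were not matched for base content, so the shares do not show an enrichment. The promoter windows of Il1rap and of the 2 start sites of Il33 held 0. A match describes letters only, and these libraries hold no measure of binding.

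Il1rl1 was the pathway gene that these cells carried in quantity. Over all cells it had 15168 UMIs in NW and 13779 in ABX, or 202 CPM (198 to 205) and 227 CPM (223 to 231), with at least 1 UMI in 24.1% and 21.5% of cells. Il1rap had 496 and 352 UMIs (6.59 and 5.79 CPM), and Il33 had 56 and 149 UMIs (0.745 and 2.45 CPM). The ABX library was above NW by 1.12-fold for Il1rl1 (1.099 to 1.15) and by 3.29-fold for Il33 (2.41 to 4.56). The ratio for Il1rap, 0.878 (0.764 to 1.01), lay within counting error in the main values. Its interval left out equal levels without predicted doublets (log2 ratio of -0.43 to -0.0191). It also did so when scaled by the median ratio over genes (-0.448 to -0.0467). Of the 13357 genes that reached 100 UMIs when the libraries were added, 10.8% were higher in ABX by at least 1.5-fold and 2.1% were lower by as much. Of the 3 genes, Il33 alone was past that limit, in the direction that was the more common among all genes. The near-equal totals of Il1rl1 hid opposite differences in UMI sums. ILC2-like cells held 7291 Il1rl1 UMIs in NW and 10127 in ABX. Outside ILC2-like cells Il1rl1 UMIs numbered 7877 in NW and 3652 in ABX, a ratio of 0.592 (0.569 to 0.616).

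ILC2-like cells, the innate counterpart of Th2 cells, carried the most Il1rl1 in both libraries. Their level was 2180 CPM in NW (2130 to 2230, 759 cells) and 2256 CPM in ABX (2212 to 2301, 1247 cells), and 95.5% and 95.8% of the cells had at least 1 UMI. The ABX level was 1.04-fold that of NW (1.00 to 1.07), within a class where 1.77% of 8100 genes were higher and 3.42% were lower by at least 1.5-fold. Receptor mRNA per unit of RNA in ILC2-like cells was thus close in the 2 libraries. Per cell, the median was 9 UMIs in NW and 7 in ABX, with 44.4% and 34.1% of cells at 10 UMIs or more, beside median depths of 3986 and 3460 UMIs per cell. Thinned to 1000 UMIs per cell, 82.4% and 83.4% of ILC2-like cells would still show Il1rl1. The 34 NW and 52 ABX cells of the class without Il1rl1 had more Cd3e, a T cell receptor subunit (181 and 182 CPM), than those with it (16.5 and 18.1 CPM), so some of them carried T cell mRNA.

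Treg-like cells came next, and here the libraries differed. Il1rl1 stood at 1697 CPM in NW (1633 to 1763, 396 cells) and 1082 CPM in ABX (164 cells), and 84.8% against 56.7% of cells had a UMI. The ratio was 0.638 (0.579 to 0.701). In the same class 6.75% of 3810 genes were lower and 5.25% were higher in ABX by at least 1.5-fold, and Il1rl1 was among the former. The distribution over cells differed as well: the median Treg-like cell held 6 and 1 UMIs in NW and ABX, cells at 0 made up 15.2% in NW and 43.3% in ABX, and cells at 5 or more 59.1% and 28.0%. Depth per cell was also lower in ABX, at a median of 2518 against 3270.5 UMIs, but shares thinned to 1000 UMIs still stood at 69.7% and 44.2%. In Treg-like cells with a Foxp3 UMI alone the levels were 1754 and 1160 CPM, a ratio of 0.661 (0.593 to 0.736). The size of the difference depended on how the cells were clustered. With 50 principal components in place of 30, the log2 ratio in Treg-like cells was -0.30 (-0.44 to -0.16) instead of -0.65 (-0.79 to -0.51). In bulk sums of a class, fewer cells with the receptor and less receptor mRNA per cell cannot be told apart, which is why the shares of cells are given beside the levels.

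**Figure D1:**
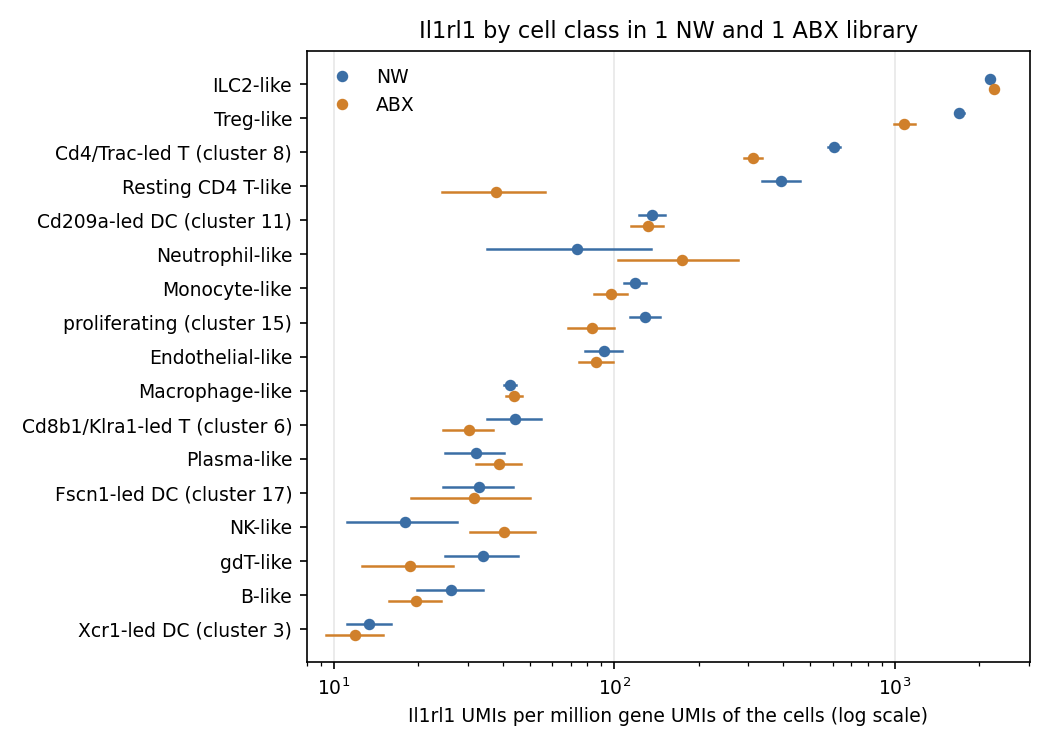
Il1rl1 level in CPM (log axis) in each cell class or cluster of the NW (blue) and ABX (orange) library; points are the values of 1 library and bars are exact 95% counting intervals. ILC2-like cells lead in both libraries, at 2180 and 2256 CPM, Treg-like cells follow at 1697 and 1082 CPM, and most other classes lie below 150 CPM.

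Conventional CD4 T cells formed the third compartment. Cluster 8, led by Cd4, Trac and Tcf7 and left unnamed because its leading genes mixed activated and resting markers, had 608 CPM of Il1rl1 in NW (614 cells) and 311 CPM in ABX (514 cells), a ratio of 0.512 (0.469 to 0.560). A UMI was found in 41.9% of its cells in NW and 24.7% in ABX. Foxp3 was found in 6.03% and 4.47% of its cells, so few of them were Treg cells. Resting CD4 T-like cells showed the widest gap, 394 CPM in NW (337 to 458, 73 cells) against 37.99 CPM in ABX (24.3 to 56.5, 150 cells). In NW, however, 31.5% of the cells in that class had a Foxp3 UMI against 8% in ABX, and 18 of the 25 NW cells with Il1rl1 also had Foxp3. The part of this mixture in the gap was not tested.

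Levels below these were far lower, and each was read against B-like cells, taken as the class that should lack the gene. B-like cells had 26.2 CPM in NW and 19.6 CPM in ABX, with a UMI in 5.78% and 6.25% of cells at median depths of 4326.5 and 3939 UMIs. NK-like cells had 17.99 and 40.4 CPM, in 4.63% and 6.35% of cells, and gdT-like cells 34.02 and 18.7 CPM, in 6.06% and 4.66%. These shares of cells were near this background, so no expression was read from either class. By level, however, NK-like cells of ABX (30.6 to 52.3 CPM) lay above B-like cells (15.7 to 24.1 CPM). In that library, 4 NK-like cells with at least 5 UMIs each held 54.4% of the UMIs of their class. Macrophage-like cells had 42.5 and 43.9 CPM, in 15.4% and 13.1% of cells, a ratio of 1.03 (0.954 to 1.12), and thinned shares of 3.97% and 4.23% against 1.79% and 1.66% in B-like cells. Of their Il1rl1 UMIs, 24.0% and 17.6% sat in 40 and 21 cells with at least 5 UMIs each. At least 4 of the 9 ILC2 markers were found in 18 and 12 of these cells, and at least 4 of the 7 Treg markers in 12 and 1. Endothelial-like cells had 92.0 and 86.2 CPM, but 70.3% and 70.6% of these UMIs sat in 12 and 13 cells with at least 5 UMIs each. Of those cells, 10 in NW and 11 in ABX carried at least 4 of the 9 ILC2 markers. In order of level, ILC2-like, Treg-like, cluster 8, resting CD4 T-like cells and cluster 21, which mixed DC and T cell genes, did not overlap with their neighbours in NW. In ABX the first 3 of these did not overlap, and the intervals of most classes below them did.

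Dendritic cells were uneven. The Cd209a-led cluster 11, one of 3 DC-like clusters, had 137 CPM of Il1rl1 in NW (123 to 152, 359 cells) and 131 CPM in ABX (115 to 149, 281 cells), and the share of cells with a UMI was 40.1% and 36.3%. The Xcr1-led cluster 3 had 13.3 and 11.9 CPM, in 9.27% and 8.53% of cells, although its cells were deeper (medians of 8661 and 7999 against 6795 and 5851 UMIs). The Fscn1-led cluster 17, which held Ccr7 among its leading genes, lay between them at 32.9 and 31.7 CPM. Of the cluster 11 cells with a UMI, most had 1 to 4 (132 and 91 cells), and 12 and 11 cells had more. Of the cells with more, 3 in NW and 1 in ABX carried at least 4 of the 9 ILC2 markers, and 3 and 0 at least 4 of the 7 Treg markers. The part of free mRNA in the cells with 1 to 4 UMIs was not tested. Thinned to 1000 UMIs, 12.8% and 13.8% of cluster 11 cells would keep a UMI. The ABX to NW ratio was 0.961 (0.810 to 1.14), within counting error.

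Monocyte-like cells had 119 CPM in NW and 97.3 CPM in ABX, a ratio of 0.821 (0.696 to 0.966). This difference rested on 2 cells. The cell with the highest Il1rl1 count of the NW library, 54 UMIs, was clustered here and held 198 UMIs each of Cpa3 and Tpsb2, which are mast cell proteases. Mast cells and basophils are known ST2 bearers, so cells with at least 4 of 9 mast cell markers including a protease, or at least 4 of 7 basophil markers, were counted after these values were seen. There were 6 such cells in NW, of which 3 met both rules, with 188 Il1rl1 UMIs or 1.24% of the NW total. The 5 cells that met the mast cell rule had 20, 22, 34, 52 and 54 Il1rl1 UMIs, each above the median ILC2-like cell. No such cell was found in ABX, where 0 of 12724 cells allows a share of up to 0.0236%. Without the 2 such cells among them, monocyte-like cells had 401 and 217 UMIs and a ratio of 0.974 (0.822 to 1.15). The ILC2-like log2 ratio was 0.06 (0.02 to 0.11) without the 3 such cells clustered there.

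**Figure D2:**
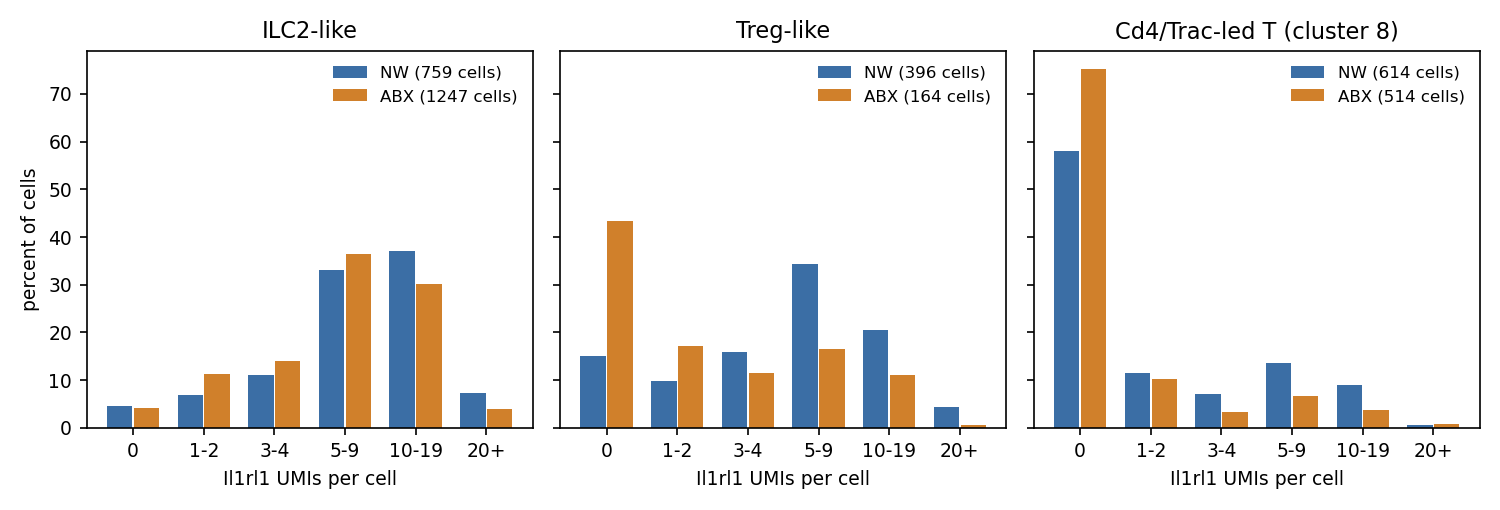
Percent of cells (y axis) by number of Il1rl1 UMIs per cell (x axis) in ILC2-like cells, Treg-like cells and the Cd4- and Trac-led cluster 8, in NW (blue) and ABX (orange). ILC2-like cells have a similar shape in both libraries, whereas the share of Treg-like cells at 0 UMIs is 15.2% in NW and 43.3% in ABX and that of cluster 8 is 58.1% and 75.3%.

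The carriers of the receptor mRNA therefore differed between the libraries. ILC2-like cells held 48.1% of all Il1rl1 UMIs in NW (47.3 to 48.9) and 73.5% in ABX (72.8 to 74.2), out of 4.45% and 7.39% of all gene UMIs. Treg-like cells held 17.5% (16.9 to 18.1) and 3.76% (3.45 to 4.09), cluster 8 held 10.5% and 5.18%, and macrophage-like cells held 10.2% and 7.32%. Treg-like cells, second to ILC2-like cells in NW, came after macrophage-like cells and cluster 8 in ABX. Of all gene UMIs, macrophage-like cells held 48.3% and 37.8%, far above their shares of Il1rl1. Treg-like cells held 2.08% and 0.788% of them, and cluster 8 held 3.48% and 3.77%.

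To see whether cell numbers or levels accounted for the totals, the difference of 25.1 CPM between the libraries was split, class by class, into a part from the class's share of all UMIs and a part from its Il1rl1 level, each taken at the average of both libraries. Shares contributed 46.4 CPM and levels -21.3 CPM. ILC2-like cells contributed 69.7 CPM, of which 65.2 CPM came from their larger share and 4.53 CPM from their level. Treg-like cells contributed -26.7 CPM, of which -17.9 CPM came from their smaller share and -8.81 CPM from their level. Cluster 8 contributed -9.40 CPM, through its level (-10.7 CPM) and against a small gain in share (1.34 CPM). The split is arithmetic on 2 libraries, and a share moves with every other class of the same library.

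**Figure D3:**
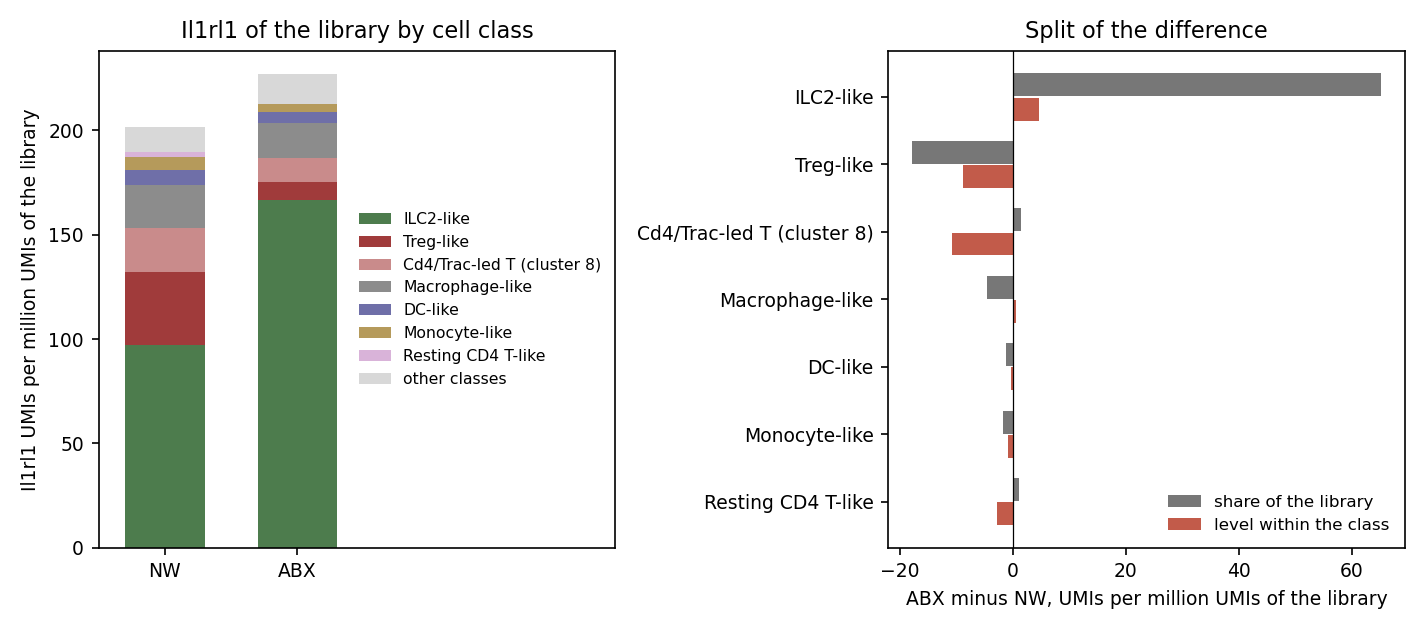
Left, Il1rl1 level in CPM over the NW and ABX library, stacked by the cell class that held them; right, the ABX minus NW difference of each class in the same unit, split into the part from the class's share of the library (grey) and the part from its level (red). ILC2-like cells add 65.2 CPM through their share, while Treg-like cells add -17.9 CPM through share and -8.81 CPM through level.

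The study asked whether ST2+ Treg cells depend on the gut microbiota. That comparison was made free of clusters, in CD4 T cells gated on their antibody counts (CD4 at least 10, TCR-beta at least 15 and more CD4 than CD8b), 1030 cells in NW and 819 in ABX, at median depths of 4018.5 and 3758 UMIs. Cells with both Foxp3 and Il1rl1 made up 26.8% of the gate in NW (24.1 to 29.6, 276 cells) and 7.69% in ABX (5.96 to 9.73, 63 cells). Cells with Foxp3 and no Il1rl1 UMI made up 4.37% (45 cells, 3.20 to 5.80) and 4.88% (40 cells, 3.51 to 6.59). The Il1rl1-bearing share was 0.287-fold in ABX (0.222 to 0.371), while the ratio of the share without it, 1.12 (0.738 to 1.69), lay within counting error. The 2 intervals do not overlap, although the absence of a UMI does not show that a cell lacks the receptor. As a share of all kept cells, the double-positive cells were 2.21% in NW and 0.495% in ABX, and those with Foxp3 alone 0.361% and 0.314%.

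Among gated Foxp3-positive cells, 86.0% had Il1rl1 in NW (81.7 to 89.6, of 321 cells) and 61.2% in ABX (51.1 to 70.6, of 103 cells). The level over these cells was 1262 CPM and 660 CPM, a ratio of 0.523 (0.469 to 0.582). The difference was not particular to Foxp3-positive cells. Among gated cells without Foxp3, 40.5% and 21.5% had Il1rl1, at 474 and 210 CPM, a ratio of 0.442 (0.405 to 0.482). The make-up of the gate differed too. Of its cells without Foxp3, 468 of 709 in NW and 336 of 716 in ABX were in cluster 8. Over the whole gate, 52 NW and 117 ABX cells were resting CD4 T-like. The part of this make-up in the differences was not tested. Cells with Il1rl1 and no Foxp3 also had a smaller share in ABX, at 27.9% of the gate in NW (287 cells) and 18.8% in ABX (154 cells), while cells with neither made up 41.0% and 68.6%. Asking for 2 UMIs of each gene, the Foxp3-positive cells with Il1rl1 were 84.0% and 55.6%, and at stricter antibody limits (CD4 at least 20, TCR-beta at least 30) they were 89.3% and 64.4%.

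**Figure D4:**
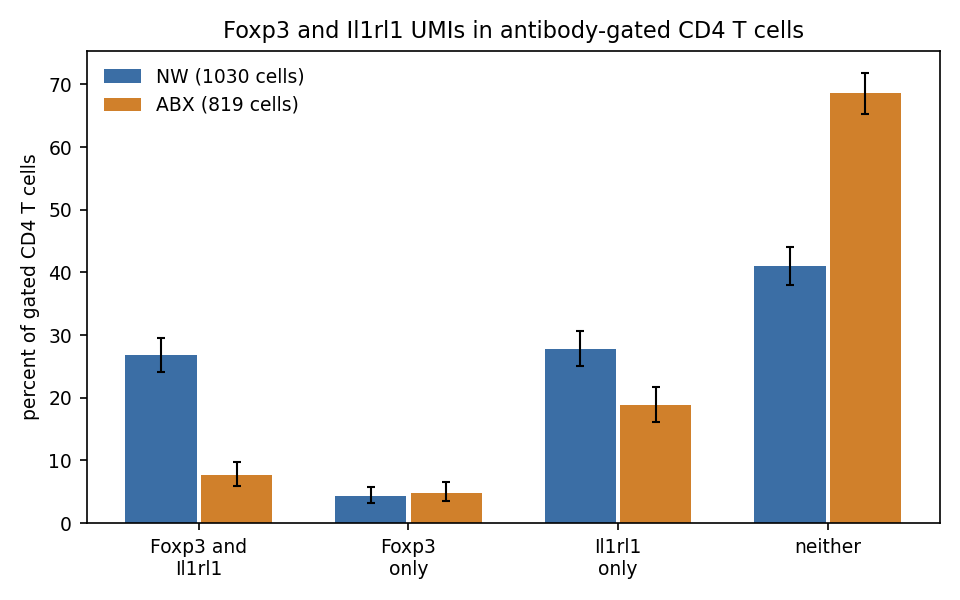
Percent of antibody-gated CD4 T cells (y axis) with UMIs of both Foxp3 and Il1rl1, of either alone or of neither, in the NW (blue, 1030 cells) and ABX (orange, 819 cells) library; bars start at 0 and whiskers are exact 95% binomial intervals. The double-positive share is 26.8% in NW and 7.69% in ABX, whereas the whiskers of the share with Foxp3 alone (4.37% and 4.88%) overlap.

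Within the gate, the Il1rl1-bearing cells differed from the others in several genes and antibodies in both libraries. Gata3, a transcription factor of type 2 lymphocytes and VAT Treg cells, stood in NW at 722 CPM in cells with both genes, 519 CPM with Il1rl1 alone, 204 CPM with Foxp3 alone and 105 CPM with neither. In ABX the same order held, at 500, 367, 136 and 89.2 CPM. Klrg1, a marker of terminally differentiated effector and tissue Treg cells, was at 838 and 423 CPM in double-positive cells of NW and ABX, against 237 and 40.8 CPM in cells with Foxp3 alone. The CD25 antibody, which binds the IL-2 receptor alpha chain, had a median of 44 counts in double-positive NW cells and 11 in those with Foxp3 alone, and of 25 and 12 counts in ABX. These counts are not scaled for depth, at medians of 4262.5 and 3323 UMIs in NW and 3361 and 3319 UMIs in ABX. The CD44 antibody was also higher, at 231 and 164 counts in NW and 177 and 146 in ABX. Not every listed gene kept its direction. In NW, Pparg was at 58.6 CPM in double-positive cells and 23.7 CPM with Foxp3 alone, on 94 and 5 UMIs. In ABX, Pparg was at 23.8 and 45.3 CPM, on 9 and 10 UMIs. Cells with Il1rl1 and no Foxp3 UMI had little mRNA of the Treg factor Helios: Ikzf2, its gene, was at 84.4 and 51.7 CPM in them, against 778 and 741 CPM in double-positive cells. They carried more Tcf7 (305 and 245 CPM) than double-positive cells (45.5 and 82.0 CPM). In NW these Foxp3-negative cells had Csf2 at 52.1 CPM and Il5 at 27.9 CPM, and in ABX at 8.99 and 4.49 CPM, on 84 and 8 UMIs of Csf2 and 45 and 4 UMIs of Il5.

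The same contrast held in the Treg-like cluster, between 336 cells with and 60 cells without Il1rl1 in NW, and 93 with and 71 without in ABX. Median depth was 3397 against 2686.5 UMIs in NW and 2531 against 2494 UMIs in ABX, so in NW cells with the gene were also deeper. Gata3 was 2.80-fold higher in cells with Il1rl1 in NW (897 against 320 CPM) and 4.52-fold higher in ABX (888 against 196 CPM). Klrg1 was 3.90-fold and 3.91-fold higher, and Cxcr6, a chemokine receptor of tissue-resident lymphocytes, 3.74-fold and 1.83-fold. Foxp3 itself was at 1125 against 894 CPM and 1135 against 962 CPM, and Ikzf2 at 1106 against 1093 CPM and 1208 against 1202 CPM, so these Treg lineage genes differed by at most 1.26-fold. Tcf7, which marks resting T cells, ran the other way, at 18.8 against 66.2 CPM in NW and 25.5 against 275 CPM in ABX. CD25 medians were 31.5 against 13 counts in NW and 14 against 9 counts in ABX. Cd36, a fatty acid transporter, did not follow Il1rl1 (445 against 574 CPM and 258 against 270 CPM). Since these cells were clustered on most of these genes, the values describe the cluster and were not tested.

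The co-receptor had another distribution. Il1rap was highest in neutrophil-like cells, at 183 CPM in NW (119 to 271, 25 UMIs in 62 cells) and 204 CPM in ABX (126 to 311, 21 UMIs in 56 cells), with a UMI in 30.6% and 26.8% of cells despite a median depth of 1797.5 and 1505 UMIs. IL-1RAcP also serves the IL-1 receptor, and the decoy receptor gene Il1r2 was at 1094 and 873 CPM in the same cells. In the cells that carried the most Il1rl1, Il1rap was sparse: 12.3 CPM (8.80 to 16.6) and 12.3 CPM (9.23 to 15.9) in ILC2-like cells, in 4.87% and 3.77% of cells, and 5.76 and 10.4 CPM in Treg-like cells on 9 and 5 UMIs. B-like cells had 3.27 and 3.15 CPM. The intervals of ILC2-like cells lay above those of B-like cells, whereas those of Treg-like cells overlapped them. Levels of Il1rap and Il1rl1 are not compared with each other, since 3′ counts of different genes are not on a shared scale.

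In the main clustering, Il1rap was lower in ABX in macrophage-like and DC-like cells. Macrophage-like cells had 6.03 CPM in NW (219 UMIs) and 4.53 CPM in ABX (104 UMIs), a ratio of 0.752 (0.590 to 0.954). DC-like cells had 6.90 CPM (92 UMIs) and 4.14 CPM (36 UMIs), a ratio of -0.74 on the log2 scale (-1.34 to -0.17). Neutrophil-like cells had a ratio of 1.11 (0.591 to 2.07) and ILC2-like cells one of 1.00 (0.655 to 1.54), both within counting error. These classes had few Il1rap UMIs per cell. The macrophage-like interval included a log2 ratio of 0 when cells were clustered on mRNA alone (-0.64 to 0.05). It also did so with 50 principal components (-0.63 to 0.06) and when no genes were held out of the clustering (-0.68 to 0.01).

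Cells with both receptor chains were few. Il1rap was found in 36 of the 725 ILC2-like cells with Il1rl1 in NW and in 46 of 1195 in ABX. Since nearly all ILC2-like cells had Il1rl1, these counts were bound to lie near those that independence of the genes would give (35.3 and 45.04). In Treg-like cells 8 and 3 cells had both, beside 7.64 and 2.84 under independence. In cluster 8, where fewer cells had Il1rl1, 11 NW cells had both beside 6.28 under independence, with Il1rap in 4.28% of the cells with Il1rl1 and 1.12% of those without. In ABX it was 4 cells beside 3.46. Over all cells, which mix classes and depths, 131 and 85 cells had both beside 108 and 68.05.

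Il33 was close to the limit of detection in these CD45-enriched libraries. It had 56 UMIs in 34 of 12474 NW cells (0.273%) and 149 UMIs in 79 of 12724 ABX cells (0.621%). Fibroblast-like cells, whose defining genes include Dcn and collagens, held 58 of the ABX UMIs in 22 of 86 cells, at 77.1 CPM (58.6 to 99.7), with up to 10 UMIs in a cell. NW had 5 fibroblast-like cells with 0 UMIs, which allows up to 44.8 CPM. The limit takes UMIs as independent, whereas the ABX UMIs sat in 22 of 86 cells. So 5 cells without a UMI do not show a lower level in NW. Cluster 25, 9 cells, in which all 7 mesothelial markers including Upk3b were raised over the cluster as a whole, had 4 UMIs in its 2 NW cells and 9 UMIs in its 7 ABX cells. Endothelial-like cells had 5 and 9 UMIs (2.63 and 3.62 CPM). No Il33 UMI was found in ILC2-like or Treg-like cells, which allows a share of cells with a UMI of up to 0.395% of 759 NW and 0.241% of 1247 ABX ILC2-like cells, and of up to 0.758% of 396 NW and 1.83% of 164 ABX Treg-like cells. This limits detection at these depths and not expression.

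Without fibroblast-like cells and cluster 25, Il33 stood at 52 UMIs in NW and 82 in ABX, a ratio of 1.98 (1.38 to 2.85) in place of 3.29. The remainder lay mainly in macrophage-like cells, with 31 UMIs in 17 cells and 58 UMIs in 39 cells (0.853 and 2.53 CPM, ratio 2.96, 1.88 to 4.74). These cells also carried fibroblast mRNA. At least 3 of 8 fibroblast markers were found in 11 of the 17 and 14 of the 39 cells, against 0.563% and 1.35% of macrophage-like cells without Il33. Their median depth was 8834 and 6741 UMIs, against 5644 and 4075 UMIs in the macrophage-like cells without Il33, and 0 were predicted doublets. Dcn, a fibroblast matrix gene, was at 26.8 CPM over macrophage-like cells in NW and 89.7 CPM in ABX, so fibroblast mRNA in this class moved with Il33. Its part in the Il33 difference was not tested.

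**Figure D5:**
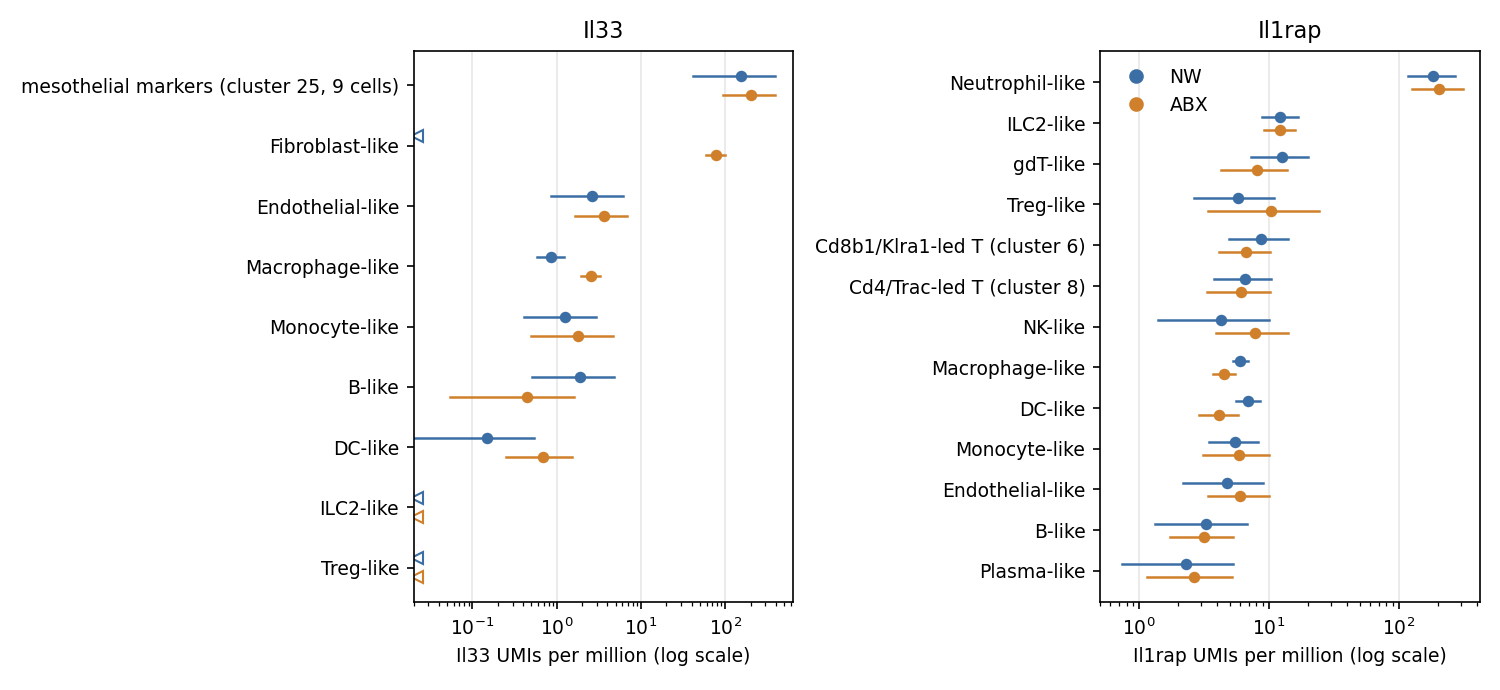
Il33 (left) and Il1rap (right) levels in CPM (log axes) by cell class in NW (blue) and ABX (orange), with exact 95% counting intervals; an open triangle at the left edge marks a class with 0 UMIs. Il33 is highest in the 9 cells of cluster 25 and in ABX fibroblast-like cells (77.1 CPM), and Il1rap in neutrophil-like cells (183 and 204 CPM).

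The other genes of the pathway were read from lists, which were also chosen with earlier results of these data known. Members past 1.5-fold were counted among those that reached 100 UMIs in the cells compared, the libraries added. Of all 13357 genes compared over all cells, 10.8% were higher in ABX and 2.1% lower past this limit. Beside these shares, 2 of 6 IL-1 family receptors were higher in ABX, the chains of the IL-18 receptor. They were Il18r1 (56.0 and 84.9 CPM) and Il18rap (31.2 and 51.9 CPM). Il18r1 was highest in gdT-like cells, which were 2.65% of NW and 3.88% of ABX cells. Il18rap was highest in NK-like cells, which were 2.60% and 3.10%. The part of cell numbers in these 2 ratios was not tested. Of 5 ligands and their inhibitors, Il1rn, which encodes the IL-1 receptor antagonist, was lower (7.59 and 2.24 CPM), and Il1b, Il1a, Il18 and Il18bp stayed within 1.5-fold. None of 14 genes of IL-33 signalling from Myd88 to Nfkb1 was past the limit, and their median log2 ratio was -0.01 beside 0.06 over all genes. Of 5 measured proteases that can cleave IL-33, the mast cell proteases Cma1 (523 and 105 UMIs) and Tpsb2 (743 and 13 UMIs) were lower. The 6 NW cells with mast cell or basophil markers held 388 of the Cma1 and 683 of the Tpsb2 UMIs. Without them Cma1 had 135 and 105 UMIs, a ratio of 0.962 (0.738 to 1.25) within counting error, and Tpsb2 60 and 13 UMIs, a ratio of 0.268 (0.135 to 0.494).

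Of 8100 genes in ILC2-like cells, 1.77% were higher and 3.42% lower in ABX past the limit. Of 13 signalling genes 1 was past it, a count too small to read as a result about the list. Tnfaip3, an NF-kB target that encodes the inhibitor A20, was at 1168 CPM in NW and 669 CPM in ABX, a ratio of 0.573. Of 14 genes of ST2-bearing cells, Areg, Il5, Csf2 and Ccr8 were lower and Calca was higher (301 and 478 CPM), with a median log2 ratio of -0.13 against 0.01 over all genes of the class. Areg encodes the growth factor amphiregulin, Ccr8 a chemokine receptor, and Calca the neuropeptide CGRP and calcitonin. Il1rl1 itself, at a log2 ratio of 0.05, was thus not among the genes of these cells that differed most. Pparg (99.8 and 125 CPM) and Klrg1 (644 and 633 CPM) were within 1.5-fold.

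Of 3810 genes in Treg-like cells, 5.25% were higher and 6.75% lower in ABX past the limit. Of the genes of ST2-bearing cells, 7 of 11 were lower, with a median log2 ratio of -0.69 against 0.03 over all genes of the class. They were Klrg1 (1002 and 485 CPM), Ccr2 (1067 and 643 CPM), Cxcr6 (397 and 247 CPM), Cd36 (460 and 263 CPM), Il10 (104 and 33.4 CPM), Areg (81.2 and 20.9 CPM) and Pparg (64.0 and 41.8 CPM). Gata3 (830 and 593 CPM), Il2ra (1324 and 971 CPM), Rora (513 and 499 CPM) and Batf (59.5 and 58.5 CPM) were within the limit. Pparg had 100 and 20 UMIs, and its interval on the log2 scale, -1.39 to 0.09, included 0. The IL-18 receptor gene Il18r1 ran the other way, at 38.4 CPM in NW and 186 CPM in ABX, a ratio of 4.84. Of 7 signalling genes Tnfaip3 was lower (632 and 368 CPM), and Nfkb1 was at 234 CPM in both. Foxp3 was detected in 87.6% of this cluster's NW cells and 71.3% of its ABX cells, and the part of that difference in these differences was not tested.

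Over the 15 classes with at least 50 cells in both libraries, the genes whose log2 levels followed Il1rl1 most closely were Ptpn13 (Pearson r of 0.84 in NW and 0.87 in ABX), Pcyt1a, Cd200r1, Hif1a and Ccr8. Ptpn13, a phosphatase gene, was highest in ILC2-like cells (210 and 237 CPM), and Cd200r1, an inhibitory receptor gene, in Treg-like cells (203 and 102 CPM). The 5 genes nearest to Il1rap were Ptp4a1 (0.94 and 0.95), Gsr, R3hdm4, Adipor1 and Fam32a, all highest in neutrophil-like cells. For Il33 they were Uaca, Tppp3, Scarf1, Lmo2 and Ddr2, on 56 and 149 UMIs of Il33 and without fibroblast-like cells, of which NW had too few. These are correlations over classes of the same libraries, which share depth and free mRNA, and they are given as a description.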

How the data were processed

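Single-cell mRNA and 10 antibody-oligonucleotide tags were measured on the BD Rhapsody platform in 1 NW and 1 ABX library. Reads had been processed by the authors in the BD Rhapsody WTA pipeline, version 1.8, on mm10, and the submitters' processing notes also name R 3.6.0 and Seurat 3.0.1. The deposited values are whole-number UMI counts per cell and gene or antibody, not normalized. The study's methods list 8 antibodies, and those 8 were used here.

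Cells with at least 500 UMIs, 200 genes and at most 25% mitochondrial UMIs were kept. In R 4.3.3 with Seurat 5.3.0 they were clustered on weighted neighbours of mRNA (2000 variable genes, chosen after 28 pathway and list genes were held out, 9 of which would have been among them; 30 principal components) and antibodies, at resolution 0.6. A cluster of at least 50 cells was named when at least 3 listed markers were raised 1.5-fold and found in 10% of its cells, with 10 CPM added to both sides. Scrublet (scanpy 1.11.5, Python 3.11.15) marked 338 cells in NW and 3 in ABX, so NW's lowest marked score was applied to both after that was seen (338 and 329 cells), and predicted doublets were kept in the main values.

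UMIs were summed per library and class. Poisson sums, ratios and shares have exact 95% intervals (Clopper-Pearson for shares; scipy 1.17.1), those of a ratio of shares are log-scale approximations, and a count of 0 allows up to 3 counts. UMIs of 1 cell are not independent, so intervals are too narrow for cell-to-cell spread. Thinned shares are the expected shares of cells that keep a UMI at 1000 UMIs per cell, shallower cells being left out. No test was made with 1 library per condition. Scripts were tested on simulated data. Genes named are the 3 members, the listed pathway genes and the 5 genes nearest to each member, and the mast cell and basophil rules were chosen after values were seen. Members and lists were chosen with earlier results of these data known. Alternatives varied the filters, doublets, scaling, clustering and gate.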

Additional observations from a re-analysis of the deposited data

Results flagged for a closer look

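In the main values, the Il1rl1 ratio between the libraries was higher in ABX in some classes and lower in others, each beyond counting error. None of these differences between classes was tested. On the log2 scale of ABX over NW the ratio was 0.0498 in ILC2-like, 1.17 in NK-like and 1.25 in neutrophil-like cells. It was -0.284 in monocyte-like, -0.649 in Treg-like, -0.865 in gdT-like and -3.37 in resting CD4 T-like cells, and -0.544 in cluster 6, -0.636 in cluster 15 and -0.964 in cluster 8. The NK-like value rests on 21 and 57 UMIs and the gdT-like value on 46 and 30 UMIs, and in both classes the share of cells with Il1rl1 was near that of B-like cells, taken as background, so neither is read as a difference in expression. The neutrophil-like value rests on 10 and 18 UMIs in 5 and 3 cells, and the monocyte-like value on 2 NW cells with mast cell markers. The ILC2-like value was 1.04-fold, and its interval included 0 under some of the alternatives given below. So no class is read as having a higher level in ABX.

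Signal was also found among the barcodes that the cell filters removed, which enter no comparison. In ABX, Il33 was found in 0.257% of 5061 removed barcodes and Il1rl1 in 4.31%. In NW the shares of 5188 removed barcodes were 0.0771% and 3.87%.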

How the results depend on the processing

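No paired analysis was possible because there is 1 library per condition. Of 63 recomputed values, 51 moved by less than counting error, and 12 moved by more; no log ratio changed sign. Over all cells the Il1rl1 log2 ratio of 0.169 was 0.238 with at most 10% mitochondrial UMIs and 0.109 when scaled by the median ratio over genes, and the Il33 log2 ratio of 1.72 was 0.982 without fibroblast-like cells and cluster 25, an alternative added after the data were seen. With 50 principal components the Il1rl1 log2 ratio was -0.296 in Treg-like cells (main value -0.649) and 0.13 in ILC2-like cells (0.0498), and the share of Il1rl1 UMIs in ILC2-like cells was 46.4% in NW (48.1%) and 72.5% in ABX (73.5%), and in Treg-like cells 15.7% in NW (17.5%). Clustered on mRNA only, the Treg-like ratio was -0.848 and the ILC2-like share in ABX was 72.7%. Without predicted doublets the ILC2-like shares were 49.1% and 74.7%. The cause of these shifts was not tested. The ILC2-like interval included 0 on mRNA only, without doublets and with median ratio scaling. The share of Foxp3-positive CD4 T cells with Il1rl1 ranged from -0.19 to -0.139 on the log10 scale of ABX over NW. Libraries without replicates, few Il33 and Il1rap UMIs and the 5 fibroblast-like cells of NW limit what can be read.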

Other observations

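Among other IL-1 family genes, Il1b and Il1rn had their highest levels in neutrophil-like cells in both libraries. Il1b was at 8322 CPM in NW and 4508 CPM in ABX in these cells, and Il1rn at 624 and 175 CPM, on 62 and 56 cells. By UMIs, macrophage-like cells held more of Il1b (3041 and 2752 UMIs) than neutrophil-like cells (1134 and 465 UMIs). Il18 was highest in DC-like cells (51.3 and 52.4 CPM), and Il1a in monocyte-like cells of NW (6.71 CPM) and macrophage-like cells of ABX (10.2 CPM). In macrophage-like cells Il1b was at 83.7 and 120 CPM and Il1a at 4.68 and 10.2 CPM, higher in ABX, while Il1rn was at 5.28 and 2.79 CPM.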
